A study of Mus musculus with 2 samples.

Results

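Cd209a dendritic cells were 241 of the 13508 cells that passed the filters in both libraries, 90 of 6786 from conditional Setdb1 knockout (KO) muscle and 151 of 6722 from wild-type (WT) muscle. They were chosen by counts of unique molecular identifiers (UMIs), each of which marks 1 captured RNA molecule. A barcode needed at least 5000 UMIs with at most 10% of them mitochondrial. It also needed at least 3 UMIs of Cd209a, which encodes a mouse C-type lectin related to DC-SIGN, and at least 1 UMI over Flt3, Klrd1, H2-Oa and Zbtb46. It could hold at most 2 UMIs over the macrophage genes Adgre1 and Mrc1, and at most 1 over Pdgfra (fibro-adipogenic cells), Cdh5 (endothelium) and Cdh15 (myogenic cells). These 10 genes therefore chose the cells, and their levels are given as a description.

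Conventional dendritic cells sample their tissue, load peptides on MHC class II molecules and carry them to lymph nodes, where they prime T cells. Type 1 cells, marked by Xcr1 and Clec9a, are known for presenting the contents of dead cells to CD8 T cells. Type 2 cells, marked in mouse by Cd209a, Clec10a and Mgl2, are known for presenting to CD4 T cells and for cytokine production, and a Ccr7 and Fscn1 state marks cells that have matured and are leaving for the lymph node. In injured muscle they arrive beside the monocytes and macrophages that clear debris.

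The study profiled injured tibialis anterior muscle, the shin muscle, of mice aged 8 to 12 weeks by droplet single-cell RNA-seq, with 1 KO and 1 WT library. Setdb1 encodes a histone methyltransferase that deposits the repressive H3K9me3 mark, and by its title the study asks about muscle stem cells in regeneration. Both libraries came from muscle digested with collagenase II and then dispase, and from cells sorted after Hoechst and propidium iodide staining. The injury, the day after it, the Cre driver, the deleted exons and how many animals were pooled were not given in the sources used here.

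The libraries held 138667420 UMIs (KO) and 121703522 UMIs (WT) in total. Of the barcodes with 5000 or more UMIs, 9 were found in both libraries, and none of them was among the 241 cells. Every difference described here compares 2 libraries, without replicates and without a test. Intervals in brackets cover 95% of counting error only. Levels are in CPM, a gene's UMIs summed over the cells of a library and scaled to the same total of UMIs in every library and gate. Each cell gave few molecules: the KO cells had a median of 8898.5 UMIs and 2333 genes, the WT cells a median of 8772 UMIs and 2225 genes, and 822547 KO and 1373451 WT UMIs stood behind all levels.

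Cd209a dendritic cells made up 1.33% [1.07 to 1.63] of the KO cells and 2.25% [1.91 to 2.63] of the WT cells, a KO/WT ratio of 0.590 [0.450 to 0.772]. The Xcr1 and Clec9a dendritic cells were also the smaller share in the KO library, with 48 KO cells (0.707%) and 73 WT cells (1.09%), a ratio of 0.651 [0.443 to 0.950]. The Ccr7 and Fscn1 dendritic cells numbered 30 in the KO and 37 in the WT library, a ratio of 0.803 [0.479 to 1.34] whose interval holds 1. Of the 3 dendritic gates together, Cd209a cells were 53.6% [45.7 to 61.3] in the KO library (90 of 168) and 57.9% [51.6 to 63.9] in the WT library (151 of 261). Ly6c2 monocytes had a share ratio close to that of the dendritic cells, 5.97% of the KO and 9.07% of the WT cells (0.658 [0.579 to 0.747]). Adgre1 and Mrc1 macrophages went the other way, with 34.3% of the KO and 25.0% of the WT cells (1.37 [1.29 to 1.46]). All these shares stand behind the same sort and the same minimum of 5000 UMIs, and each share depends on the others.

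**Figure D1:**
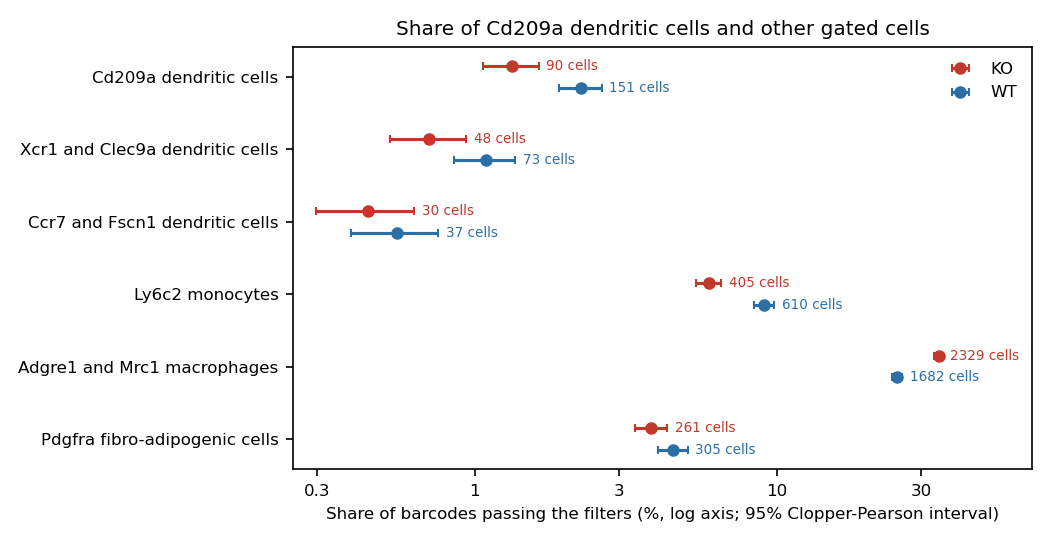
Share of each gated cell type among the cells that passed the filters (percent, log axis), with 1 point per library, 95% Clopper-Pearson intervals and the number of cells. The KO point lies left of the WT point for Cd209a dendritic cells (1.33% and 2.25%) and right of it for macrophages (34.3% and 25.0%).

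Some cells lay near the limits of the rule. Exactly 3 Cd209a UMIs were held by 7 KO and 9 WT cells, while 8 KO and 14 WT barcodes with exactly 2 met every other limit and stayed outside. Cd209a UMIs ranged around a median of 10 in the KO cells and 12 in the WT cells, with highest values of 46 in a KO and 59 in a WT cell. At the macrophage limit, 9 KO and 20 WT cells held 2 UMIs of Adgre1 and Mrc1, and 3 KO and 5 WT barcodes with 3 UMIs stayed outside. Klrd1, a killer lectin-like receptor best known from NK cells, was the most often seen gene of the second condition. It had a UMI in 77 of 90 KO and 140 of 151 WT cells, and 19 KO and 26 WT cells met the condition through Klrd1 alone. H2-Oa, a brake on peptide loading of class II molecules, was seen in 59 KO and 100 WT cells, and the dendritic cytokine receptor gene Flt3 in 35 KO and 71 WT cells. Zbtb46, a transcription factor of conventional dendritic cells, was seen in 13 KO and 20 WT cells.

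The genes of the rule differed little between the libraries. Cd209a stood at 1408 CPM in the KO and 1662 CPM in the WT cells, Klrd1 at 439 CPM in KO and 457 CPM in WT, and H2-Oa at 177 CPM in KO and 224 CPM in WT. Flt3 had 65.6 CPM in KO and 81.5 CPM in WT cells. Cd209a and H2-Oa were the lower in KO cells, with ratios of 0.847 [0.788 to 0.909] and 0.792 [0.646 to 0.967].

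Most of the listed cell type markers lay outside the rule. Of 19 conventional dendritic cell markers, 10 in KO and 11 in WT Cd209a cells stood at 50 CPM or more. The numbers were 3 in KO and 3 in WT monocytes, and 2 in KO and 2 in WT macrophages. Flt3 and Zbtb46 of the rule are among the 19, and Flt3 is counted at 50 CPM or more. Part of this count and of the list's sum therefore follows from the rule, while Bcl11a, Kmo and Dpp4 lie outside it. The list summed to 1774 CPM in KO and 1549 CPM in WT Cd209a cells, less than in Xcr1 and Clec9a cells (3926 CPM in KO, 3435 CPM in WT). Bcl11a, a transcription factor needed by dendritic progenitors, stood at 74.2 CPM in KO and 77.9 CPM in WT Cd209a cells, but at 4.02 CPM in KO and 4.53 CPM in WT monocytes. Kmo, an enzyme of the kynurenine pathway that is typical of dendritic cells, was at 81.5 CPM in KO and 83.0 CPM in WT cells, against 8.03 CPM in KO and 7.70 CPM in WT monocytes. Dpp4 (CD26), a surface peptidase, was at 102 CPM in KO and 103 CPM in WT cells, against 2.01 CPM in KO and 2.73 CPM in WT macrophages. The T cell receptor genes Cd3e and Cd3g, the NK receptor gene Ncr1 and perforin (Prf1) were at 0 in both libraries, as were the B cell genes Cd79a, Ms4a1 and Pax5. B cell genes were not all absent: 5 of 11 listed in KO and 4 in WT cells had a UMI. They summed to 163 CPM in KO and 212 CPM in WT cells, with 1 gene at 50 CPM or more in each library. Of the 10 neutrophil markers, the sum was 8.51 CPM in KO and 10.2 CPM in WT cells. Of all 20 T and NK cell markers, 9 in KO and 13 in WT cells had a UMI, with sums of 315 CPM in KO and 296 CPM in WT, and Klrk1 (143 CPM in KO, 181 CPM in WT) and Il7r (101 CPM in KO, 53.9 CPM in WT) were those at 50 CPM or more. Cd3d, Trac, Trbc2, Nkg7 and Gzmb were at 0 in KO and at 0.728 CPM each in WT.

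Of 17 listed type 2 markers, 12 in KO and 12 in WT Cd209a cells stood at 50 CPM or more. In Xcr1 and Clec9a cells 1 did in KO and 2 in WT. Cd209a, Klrd1 and H2-Oa of the rule are among the 12, so part of this count follows from the rule. Clec4a4 and Plet1 were at 0 in WT Cd209a cells. Clec10a and Mgl2, 2 C-type lectins that bind galactose and its derivatives, stood at 641 and 427 CPM in KO and at 518 and 352 CPM in WT cells. In Xcr1 and Clec9a dendritic cells they were at 11.9 and 8.94 CPM in KO and 11.3 and 1.03 CPM in WT. Mgl2 had a UMI in 38 of the 90 KO and 62 of the 151 WT Cd209a cells. Xcr1 itself was at 0 CPM in the KO and 1.46 CPM in the WT Cd209a cells, against 334 CPM in KO and 323 CPM in WT cells of its own gate. Fscn1, the actin bundler of migrating dendritic cells, was at 3.65 CPM in KO and 6.55 CPM in WT Cd209a cells, against 1934 CPM in KO and 1803 CPM in WT cells of the Ccr7 and Fscn1 gate. Irf8, a transcription factor that type 1 cells depend on, was at 49.8 CPM in KO and 107 CPM in WT Cd209a cells, against 1695 CPM in KO and 1496 CPM in WT Xcr1 and Clec9a cells.

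Monocyte genes were present. Ccr2, the receptor that brings monocytes into tissue, was at 391 CPM in KO and 480 CPM in WT Cd209a cells, beside 441 CPM in KO and 391 CPM in WT monocytes. Lyz2 (lysozyme) was at 908 CPM in KO and 1092 CPM in WT cells, against 11528 CPM in KO and 10358 CPM in WT monocytes. By the collagen gene Col1a2, free RNA could supply at most 3.54% of the UMIs of the KO cells, and by the proteoglycan gene Dcn at most 3.57% of those of the WT cells.

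**Figure D2:**
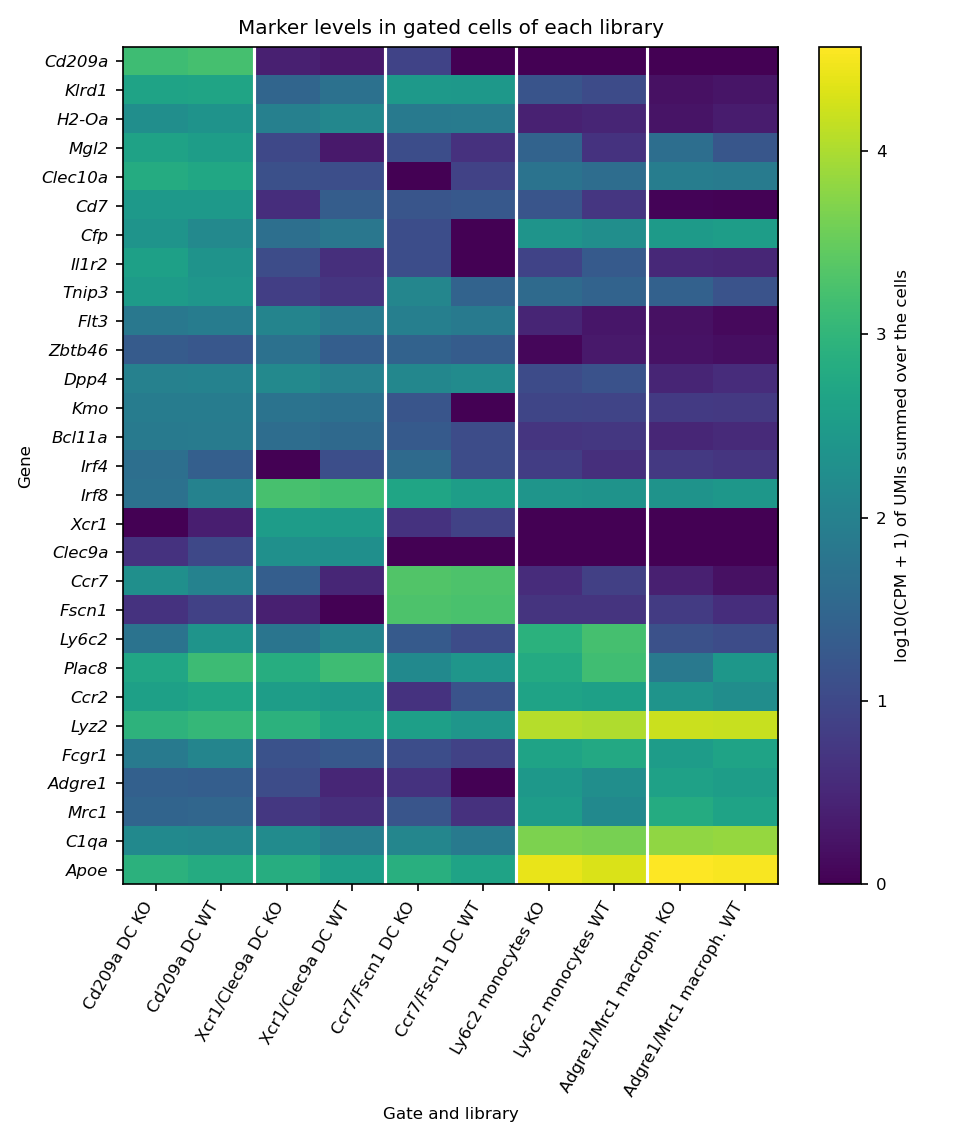
Levels of 29 marker genes (rows) as log10(CPM + 1) in 5 gated cell types (columns), KO left of WT in each pair. Cd209a, Clec10a, Mgl2, Cd7 and Il1r2 are brightest in the Cd209a dendritic cells, Irf8 and Xcr1 in the Xcr1 and Clec9a cells, and Apoe and C1qa in monocytes and macrophages.

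Set against the other gates, Cd209a cells had their own profile beyond the rule, described here without a test because the gates were cut from the same counts. A gene is counted where it differed at least 2-fold in the same direction in both libraries. Of 2474 genes measured, 206 (8.33%) were higher and 122 (4.93%) lower than in Xcr1 and Clec9a cells. The myeloid membrane protein gene Mcemp1 led, at 170 CPM in KO and 196 CPM in WT Cd209a cells and at 0 CPM in KO and 2.06 CPM in WT Xcr1 and Clec9a cells. S100a4, a calcium-binding protein of motile cells, stood at 1190.2 CPM in KO and 869 CPM in WT cells, against 25.3 CPM in KO and 27.7 CPM in WT cells of that gate. Il1r2, the decoy receptor that captures interleukin-1, and Ptgs2, the inducible prostaglandin synthase, were also among the 10 highest. Snx22, Gcsam, Itgae (CD103), Tlr3 and Naaa, all known from type 1 cells, were among the 10 lowest.

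Against Ccr7 and Fscn1 cells, 410 of 2510 genes (16.3%) were higher and 297 (11.8%) lower, both larger shares than against Xcr1 and Clec9a cells. Alox5ap, which activates 5-lipoxygenase for leukotriene synthesis, was at 1022 CPM in KO and 1060 CPM in WT Cd209a cells, against 33.1 CPM in KO and 17.2 CPM in WT cells of that gate. Il12b, a subunit of interleukin-12, and the costimulatory receptor gene Tnfrsf4 were at 0 in the Cd209a cells of both libraries, against 287 and 408 CPM in KO and 402 and 371 CPM in WT cells of that gate. Ccl5, a chemokine for T cells, was at 70.5 CPM in KO and 109 CPM in WT Cd209a cells, against 5778 CPM in KO and 10108 CPM in WT cells of that gate. Of the 20 migratory markers, 15 in KO and 18 in WT Cd209a cells had a UMI, with sums of 2264 CPM in KO and 1841 CPM in WT, against 21499.8 CPM in KO and 25552.5 CPM in WT cells of that gate.

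Against Ly6c2 monocytes, 151 of 2658 genes (5.68%) were higher and 292 (11%) lower. Against macrophages, 226 of 2713 (8.33%) were higher and 378 (13.9%) lower. Cd7, a lymphoid surface protein, was at 294 CPM in KO and 285 CPM in WT Cd209a cells, against 0.0926 CPM in KO and 0.0840 CPM in WT macrophages. Klrb1b, P2ry10, Siglecg, Fxyd7, Ifitm1, Ramp3, Cd209d and the class II brake gene H2-Ob were in the 10 highest of both comparisons. Cd209d rested on few cells: 9 KO cells held 127 of its 138 KO UMIs and 17 WT cells 102 of its 108 WT UMIs. Apoe, the complement genes C1qa and C1qc, Ms4a7, Maf and Pla2g7 were in the 10 lowest of both comparisons. Apoe stood at 847 CPM in KO and 633 CPM in WT Cd209a cells, against 36869.9 CPM in KO and 33760.5 CPM in WT macrophages. A few cells carried much of this signal: thinned macrophage-marker sums ran from 1 over a median of 7 to 324 UMIs in KO and from 0 over a median of 6 to 214 UMIs in WT cells. The richest 9 KO cells held 48.9% of the list's KO UMIs and the richest 15 WT cells 36.5% of its WT UMIs.

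The cells were not uniform. Small states within them were picked after their values were seen, so their leading genes are a description. With every cell thinned to 5000 UMIs (no cell was shallower), 16.7% of the KO and 9.93% of the WT cells held at least 2 UMIs of Ccr7, the lymph-node homing receptor, a ratio of 1.68 [0.764 to 3.68]. These cells also led in Jdp2, Pxdc1 and Tbc1d4, while 1 KO and 3 WT cells among them held a Fscn1 UMI. At least 2 UMIs of Mgl2 were held by 32.2% of the KO and 31.1% of the WT cells (1.04 [0.628 to 1.68]). Siglech, a plasmacytoid dendritic cell receptor, reached 2 UMIs in 5.56% of the KO and 4.64% of the WT cells, where Ly6d, Klk1, Cd8b1, Cox6a2 and Ccr9 came with it. The proliferation genes Mki67 and Top2a reached a sum of 2 in 5.56% of the KO and 3.97% of the WT cells. Ly6c2, the marker of classical monocytes that plasmacytoid cells also carry, reached 2 UMIs in 6.67% of the KO and 16.6% of the WT cells, a ratio of 0.403 [0.135 to 1.01]. The intervals of all these ratios hold 1.

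Before thinning, the Siglech state was 6 KO and 10 WT cells and the Ly6c2 state 9 KO and 26 WT cells, with 3 KO and 5 WT cells in both. Klk1, Ly6d, Cd8b1, Ccr9 and Siglech were also among the leading genes of the Ly6c2 state. Each of the 2 states held 21 KO and 44 WT UMIs of Klk1. The Ccr7 state was 21 KO and 23 WT cells. Any UMI of Ccr7 was found in 30.0% [20.8 to 40.6] of the thinned KO and 17.2% [11.6 to 24.2] of the thinned WT cells (35.6% and 21.9% before thinning). In Pdgfra cells, which should lack the gene, a thinned Ccr7 UMI was found in 0.383% of the KO and in 0 of the 305 WT cells, which allows a share of up to 0.984%, and their depth before thinning was higher, with medians of 31768 (KO) and 23118 (WT) UMIs.

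The KO and WT cells differed in few genes by 2-fold or more. Differences are log2 KO/WT of CPM + 5, over genes that reached 50 CPM in either library and 20 UMIs in both together. Of 2548 such genes, 33 (1.3%) were at least 2-fold higher and 31 (1.22%) at least 2-fold lower in the KO cells, and the median gene was at 0.08. Under trimmed-mean scaling the split was 17 higher and 44 lower and the median gene was at -0.05, a shift of the centre of the scale by more than 0.1. The counting interval lay wholly above 1 for 505 genes (19.8%) and wholly below 1 for 291 (11.4%). The lower side held interferon-stimulated genes, monocyte genes and a non-coding RNA, and the higher side histone and proliferation genes. Leaving out, gene by gene, the richest cell of each library kept 28 of the 33 and 25 of the 31 past 2-fold.

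Setdb1 itself could not be resolved in these cells. It had 12 UMIs in the KO and 17 UMIs in the WT cells, or 14.6 CPM in KO and 12.4 CPM in WT, a ratio of 1.18 [0.514 to 2.62]. In macrophages, with 724 KO and 449 WT UMIs, it was at 22.3 CPM in KO and 18.9 CPM in WT. Tags from the 3′ end need not come from the deleted part of the gene, so they check neither the deletion nor its absence here.

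Interferon-stimulated genes were lower as a group in the KO cells. Of 51 listed genes 33 were measured at the stated level. Of these, 32 lay below and 1 above a log2 difference of 0, where 1020 of the 2548 genes lay below. In the KO cells 8 were at least 2-fold lower and none at least 2-fold higher. For 26 the counting interval lay below 1. The median was -0.69, beside 0.08 for all genes, and the summed level of the list was 9122 CPM in KO and 14492 CPM in WT cells. The 18 monocyte markers were also lower in sum, at 3431 CPM in KO and 4846 CPM in WT cells, with Vcan, Chil3, Hp and F10 at 0 in KO and Treml4 at 0 in WT, against 15520.2 CPM in KO and 16697 CPM in WT monocytes. Their part in the result was not tested. Without the cells that held 2 or more Ly6c2 UMIs, the interferon list's median was -0.57, and without those of the Ccr7 state -0.62.

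Rsad2 (viperin), which makes an antiviral nucleotide, was at 40.1 CPM in KO and 249 CPM in WT cells, a ratio of 0.161 [0.109 to 0.231]. It was seen in 14 of 90 KO and 46 of 151 WT cells, and leaving out the richest cell of each library gave 0.143. Irf7, the transcription factor that amplifies type I interferon production, was at 177 CPM in KO and 515 CPM in WT cells (0.345 [0.287 to 0.413]), with UMIs in 54 KO and 101 WT cells. Isg15, a ubiquitin-like modifier, was at 530.1 CPM in KO and 989 CPM in WT cells (0.536 [0.480 to 0.598]). Each of these stood lower in the KO cells by more than counting error. In Xcr1 and Clec9a cells the ratio was 1.13 [0.712 to 1.79] for Rsad2 and 0.590 [0.495 to 0.700] for Irf7. In Ccr7 and Fscn1 cells it was 1.07 [0.582 to 1.97] for Rsad2 and 0.840 [0.541 to 1.30] for Irf7.

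Ifit3, an RNA-binding antiviral effector, was at 113 CPM in KO and 263 CPM in WT cells (0.430 [0.339 to 0.542]). Bst2 (tetherin), which holds budding virus at the cell surface, was at 416 CPM in KO and 841 CPM in WT cells (0.494 [0.437 to 0.558]). It is also a listed plasmacytoid marker. Without the cells that held 2 or more Ly6c2 UMIs it was at 314 CPM in KO and 579 CPM in WT, less than 2-fold apart. Isg20, an exonuclease, was at 69.3 CPM in KO and 217 CPM in WT cells. Ifit3b, Slfn1 and Phf11b complete the 8 genes past 2-fold, and Ifit1bl1, which is not in the list, was at 9.73 CPM in KO and 56.8 CPM in WT cells. The least affected members were Slfn5, Samd9l and Parp14, and Parp14 was the 1 gene above 0 (76.6 CPM in KO, 72.8 CPM in WT). Ifit and Phf11 genes have near-identical neighbours, so counts may be split among them, and Irf7 overlaps an exon of Phrf1 on the other strand.

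**Figure D3:**
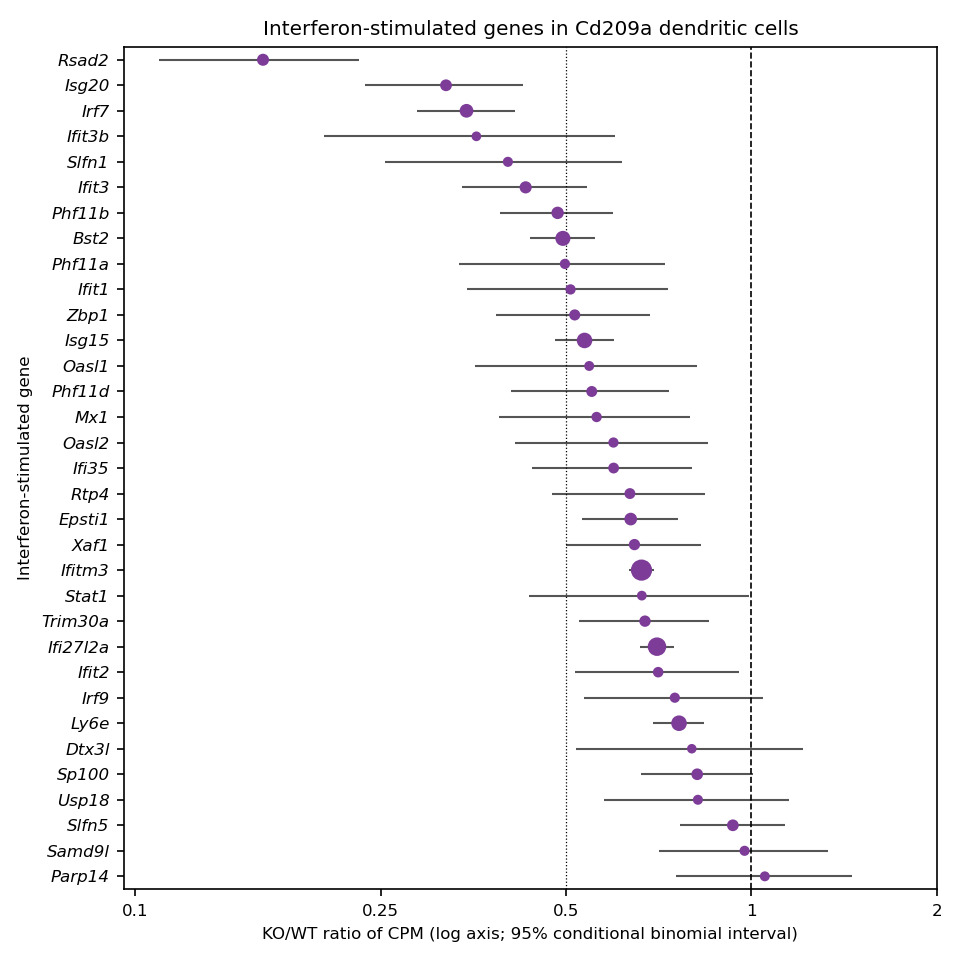
KO/WT ratio of CPM (log axis) for the 33 measured interferon-stimulated genes in Cd209a dendritic cells, with 95% conditional binomial intervals and point size growing with the level. The points run from Rsad2 at 0.161 to Parp14 at 1.05, the dashed line marks equal levels and the dotted line 2-fold lower in KO.

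Cxcl10, the interferon-induced chemokine that draws T cells, was at 24.3 CPM in KO and 193 CPM in WT cells, a ratio of 0.126 [0.0757 to 0.199]. A single WT cell held 126 of the 265 WT UMIs, and without the richest cell of each library the ratio was 0.180 [0.0982 to 0.308]. In Xcr1 and Clec9a cells the Cxcl10 ratio was 0.183 [0.101 to 0.308]. In Ccr7 and Fscn1 cells it was 6.43 [2.47 to 21.2], from 30 KO and 5 WT UMIs. Cxcl10 overlaps Art3 on the other strand. The upstream sequences of Cxcl10 and of 3 measured interferon-stimulated genes are shown because they hold GAAA, any 2 bases and GAAA again, a form of the interferon-stimulated response element bound by interferon-activated factors. Each is the 250 bases before the RefSeq start of the gene (GRCm38.p6), written 5′ to 3′ on the strand of the gene, with matches in capitals. A match on the other strand reads TTTC, 2 bases and TTTC.
Cxcl10, chr5:92348890-92349139, minus strand: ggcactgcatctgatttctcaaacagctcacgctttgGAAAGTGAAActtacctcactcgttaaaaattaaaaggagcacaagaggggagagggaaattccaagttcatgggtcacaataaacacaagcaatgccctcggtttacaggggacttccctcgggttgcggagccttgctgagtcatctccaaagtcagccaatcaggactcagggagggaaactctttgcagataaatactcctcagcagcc
Rsad2, chr12:26456453-26456702, minus strand: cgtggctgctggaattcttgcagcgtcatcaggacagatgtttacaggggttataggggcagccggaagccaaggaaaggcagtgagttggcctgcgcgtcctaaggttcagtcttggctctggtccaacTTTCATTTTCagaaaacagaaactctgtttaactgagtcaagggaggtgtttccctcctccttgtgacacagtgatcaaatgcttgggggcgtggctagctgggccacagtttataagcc
Ifit3, chr19:34583279-34583528, plus strand: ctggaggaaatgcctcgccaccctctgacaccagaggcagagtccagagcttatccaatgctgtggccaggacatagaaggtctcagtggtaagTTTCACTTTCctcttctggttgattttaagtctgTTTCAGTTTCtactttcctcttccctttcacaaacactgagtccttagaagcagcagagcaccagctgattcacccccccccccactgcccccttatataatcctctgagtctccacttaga
Bst2, chr8:71537473-71537722, minus strand: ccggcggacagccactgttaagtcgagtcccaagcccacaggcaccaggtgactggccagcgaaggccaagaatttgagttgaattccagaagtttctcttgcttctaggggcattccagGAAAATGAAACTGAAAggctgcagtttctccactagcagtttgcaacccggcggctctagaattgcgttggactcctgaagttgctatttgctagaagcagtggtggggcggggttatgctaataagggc
The matches begin 213 bases upstream of the start in Cxcl10 and 120 in Rsad2. Ifit3 holds 2 matches, 156 and 122 bases upstream, and Bst2 holds 2 that overlap, 130 and 124 bases upstream. None of the 4 windows overlaps an annotated exon. Among all genes with a RefSeq window, 936 of 27025 (3.46%) held the motif, and among the genes measured here 100 of 2024 (4.94%). Of the 33 interferon-stimulated genes, 25 had a window and 10 of these held it (40.0%). Of the 8 that were at least 2-fold lower in the KO cells, 5 did (Bst2, Ifit3, Ifit3b, Phf11b and Rsad2). A match describes these letters only and shows no binding.

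The lower level was spread over many cells, and the 2 libraries overlapped. With 5000 UMIs drawn per cell, the summed interferon list ran from 8 over a median of 37.5 to 190 UMIs in the KO cells, and from 12 over a median of 53 to 529 UMIs in the WT cells. The richest 9 KO cells held 26.5% of the list's KO UMIs and the richest 15 WT cells 31.1% of its WT UMIs. The middle of the WT cells was higher, and the cells above 190 UMIs were all WT cells.

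The same list was lower in the KO library in every other gate measured, though Rsad2 was not lower in the 2 other dendritic gates. Xcr1 and Clec9a dendritic cells had a list median of -0.40, with 21 of 31 genes below 0. Ccr7 and Fscn1 dendritic cells had -0.41 (15 of 22), Ly6c2 monocytes -0.55 (42 of 43) and macrophages -0.54 (39 of 40). Of all genes in these gates, 1261 of 2591, 1090 of 2456, 1178 of 2726 and 1163 of 2671 lay below 0, in that order. In Pdgfra fibro-adipogenic cells 19 of 19 genes lay below 0, where 1105 of all 3086 genes did. The list summed there to 4852 CPM in KO and 9193 CPM in WT, so the lower level was not particular to dendritic cells. No difference between gates was tested. The interferon receptor gene Ifnar1 was at 98.5 CPM in KO and 54.6 CPM in WT Cd209a cells (1.80 [1.30 to 2.50]). Ifnar2 was at 147 CPM in KO and 137 CPM in WT (1.07 [0.848 to 1.36]). Whether receptor levels bear on the list was not tested.

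Other interferon-related genes had lower levels too. Ly6a (Sca-1) was at 193 CPM in KO and 600 CPM in WT cells (0.322 [0.270 to 0.382]), and Irf1, a transcription factor of the interferon-gamma response, at 53.5 CPM in KO and 116 CPM in WT. Of 18 genes for cytosolic nucleic acid sensors 9 were measured, 7 below and 2 above 0, with a median of -0.56 and 1 gene at least 2-fold lower. Zbp1, a sensor of Z-form nucleic acid that is also in the interferon list, was at 79.0 CPM in KO and 153 CPM in WT cells, and Ifi205 at 38.9 CPM in KO and 127 CPM in WT. Sting1, the adaptor for cytosolic DNA, stood against this at 126 CPM in KO and 62.6 CPM in WT cells (2.02 [1.50 to 2.72]). Of the interferon-gamma GTPases only Ifi47 reached the level measured, at 62.0 CPM in KO and 119 CPM in WT cells.

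Class I and class II presentation genes parted. Of 24 class I genes 19 were measured, 15 below and 4 above 0, with a median of -0.27 and none past 2-fold. H2-K1 was at 1252 CPM in KO and 1505 CPM in WT cells, H2-D1 at 2406 CPM in KO and 2897 CPM in WT, and H2-T23 at 295 CPM in KO and 426 CPM in WT. The immunoproteasome subunit gene Psmb9 was at 210.3 CPM in KO and 289 CPM in WT cells (0.728 [0.605 to 0.872]). The chaperone genes Canx (198 CPM in KO, 130.3 CPM in WT) and Calr (409.7 CPM in KO, 314 CPM in WT) stood above 0. Per cell, the class I list had medians of 46 UMIs in KO and 51 UMIs in WT cells. Its median log2 difference was below 0 in every other gate too, from -0.27 in Xcr1 and Clec9a cells to -0.70 in Pdgfra cells.

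The 18 class II genes showed no shift. Of 14 measured, 7 lay above and 7 below 0, none past 2-fold, with a median of 0.00. Cd74, the invariant chain, was at 28062 CPM in KO and 27446 CPM in WT cells and H2-Aa at 14688 CPM in KO and 14877 CPM in WT. The list summed to 73903 CPM in KO and 73264 CPM in WT cells, with medians of 370.5 UMIs per KO and 378 per WT cell. Ciita, the master regulator of class II genes, was at 119 CPM in KO and 129 CPM in WT cells (0.924 [0.715 to 1.19]). The counting interval lay above 1 for 4 of the listed genes and below 1 for 3, and under trimmed-mean scaling the list's median was -0.12. In other gates, class II genes below 0 were 13 of 13 in Ccr7 and Fscn1 cells and 9 of 10 in monocytes. They were 9 of 14 in Xcr1 and Clec9a cells, 5 of 10 in macrophages and 4 of 4 in Pdgfra cells.

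**Figure D4:**
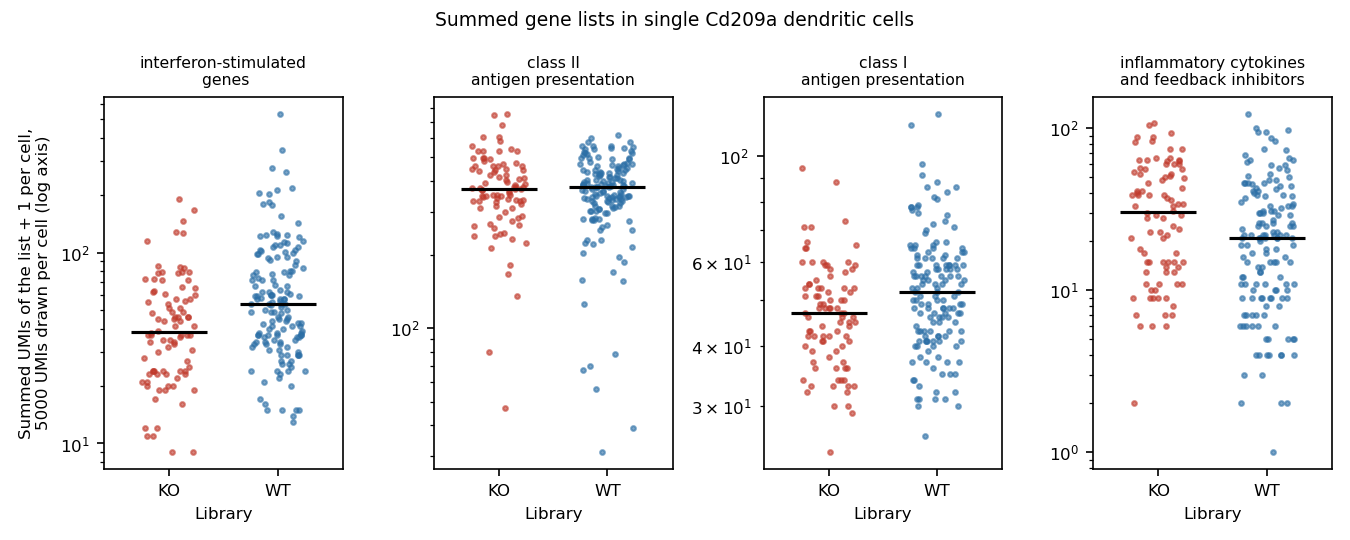
Summed UMIs + 1 of 4 gene lists in single Cd209a dendritic cells, with 5000 UMIs drawn per cell (log axes), KO left of WT, 1 point per cell and a bar at the median. The interferon list sits lower in KO (median 37.5 and 53 UMIs before the added 1), class II at the same height (370.5 and 378) and the inflammatory list higher in KO (29.5 and 20).

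Inflammatory cytokine and feedback genes stood mostly higher in the KO cells. Of 28 listed 15 were measured, 12 above and 3 below 0, with 2 at least 2-fold higher, 1 at least 2-fold lower and a median of 0.37. Among all 2548 genes, 1528 lay above 0, 33 were at least 2-fold higher, 31 at least 2-fold lower and the median was 0.08. Il1b, which encodes interleukin-1 beta, was at 3306 CPM in KO and 1892 CPM in WT cells (1.75 [1.66 to 1.84]). It was lower in the other gates, with 579 CPM in KO and 586 CPM in WT monocytes and 381 CPM in KO and 203 CPM in WT macrophages. A thinned Il1b UMI was found in 84.4% of the KO and 64.2% of the WT Cd209a cells (84.4% and 68.9% before thinning), and in 2.68% of the KO and 1.64% of the WT Pdgfra cells. Nlrp3, the inflammasome sensor that leads to interleukin-1 cleavage, was at 98.5 CPM in KO and 45.1 CPM in WT cells (2.18 [1.55 to 3.09]).

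Several of the genes that restrain this pathway were on the same side. The decoy receptor Il1r2 was at 390.3 CPM in KO and 219.9 CPM in WT cells (1.77 [1.51 to 2.08]). Tnfaip3 (A20), which ends NF-kB signalling, was at 165 CPM in KO and 88.1 CPM in WT cells. The RNase gene Zc3h12a was at 88.7 CPM in KO and 37.9 CPM in WT (2.34 [1.62 to 3.41]). Apart from these restraining genes, Nfkbiz also stood higher, at 350.1 CPM in KO and 198 CPM in WT. Tnf went the other way, at 23.1 CPM in KO and 85.2 CPM in WT cells (0.271 [0.158 to 0.443]). Per cell the list ran from 1 over a median of 29.5 to 107 UMIs in KO and from 0 over a median of 20 to 121 UMIs in WT cells, so the libraries overlapped over most of the range. In macrophages the same list had a median of 0.68 and in monocytes of -0.02.

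Chemokine genes were mostly lower in the KO cells, where 1020 of all 2548 genes lay below 0 and 31 were at least 2-fold lower. Of 20 listed 11 were measured, 8 below and 3 above 0, with 2 at least 2-fold lower and a median of -0.60. Ccl4, an inflammatory chemokine, was at 1149 CPM in KO and 2024 CPM in WT cells (0.568 [0.527 to 0.611]). Ccl6 was at 177 CPM in KO and 372 CPM in WT cells, and Ccl9 at 122 CPM in KO and 207 CPM in WT, while the neutrophil attractant Cxcl2 was at 359 CPM in KO and 299 CPM in WT. The sum of the list was 2684 CPM in KO and 4080.2 CPM in WT cells, and a few cells carried much of it: the richest 9 KO cells held 44.6% of its KO UMIs and the richest 15 WT cells 41.1% of its WT UMIs.

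Lists of dendritic identity and maturation were not all on one side. The conventional dendritic cell markers had 5 above and 6 below 0 of 11 measured and a median of -0.017. Of all 2548 genes, 1528 lay above 0. Of 29 dendritic cell transcription factor genes 22 were measured, 17 above and 5 below 0, with a median of 0.25 and Irf8 as the 1 gene past 2-fold, on the lower side (0.466 [0.321 to 0.662]). The NF-kB subunit gene Rel was at 885 CPM in KO and 612 CPM in WT cells and Relb at 97.3 CPM in KO and 61.2 CPM in WT. Runx3 was at 191 CPM in KO and 119 CPM in WT cells, and Nr4a3, which is needed for dendritic cell migration in mouse, at 242 CPM in KO and 126 CPM in WT (1.92 [1.56 to 2.37]). Of 25 costimulation and maturation genes 7 were measured, 5 above and 2 below 0, with a median of 0.26 and none past 2-fold, and the median was 0.031 among cells with at least 8000 UMIs. Irf4, the type 2 counterpart of Irf8, missed the level measured, at 46.2 CPM in KO and 23.3 CPM in WT cells (1.98 [1.21 to 3.28]).

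Receptor lists lay on both sides of 0. Their counts stand beside 1528 of all 2548 genes above 0 and a median of 0.08. Toll-like receptors and adaptors had 1 above and 4 below 0 and a median of -0.18, and killer lectin-like receptors 2 above, 2 below and a median of 0.07. Fc and complement receptors had 7 above, 5 below and a median of 0.09, which was -0.029 under trimmed-mean scaling. Of 30 C-type lectin receptor genes 11 were measured, 9 above and 2 below 0, with a median of 0.28. Cd209d was at 168 CPM in KO and 78.6 CPM in WT cells (2.13 [1.65 to 2.77]), and a single KO cell held 37 of its 138 KO UMIs, without which, and without the richest WT cell, the ratio was 1.87 [1.40 to 2.52]. Clec12a, a receptor for uric acid crystals, was on the lower side at 74.2 CPM in KO and 112 CPM in WT. Of 26 chemokine receptor and trafficking genes 12 were measured, 9 above and 3 below 0, with a median of 0.38 and none past 2-fold. Ccr7 was at 191 CPM in KO and 106 CPM in WT cells (1.80 [1.42 to 2.27]), Gpr183, an oxysterol receptor that positions dendritic cells, at 342 CPM in KO and 186 CPM in WT (1.83 [1.54 to 2.18]), and Itgb1 at 345 CPM in KO and 209.7 CPM in WT. Ccr2 was lower in KO, with a ratio of 0.816 [0.712 to 0.934]. Of 20 migratory markers 9 were measured, 7 above and 2 below 0, with a median of 0.50 and none past 2-fold.

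Other single genes stood among the most different on the higher side. Cyp7b1, the oxysterol 7-alpha-hydroxylase, was at 55.9 CPM in KO and 7.28 CPM in WT cells (7.68 [3.82 to 17.1]), with UMIs in 13 KO and 8 WT cells. Tbc1d4, a regulator of vesicle transport, was at 233 CPM in KO and 76.4 CPM in WT cells (3.05 [2.39 to 3.91]). Cells of the Ccr7 and Fscn1 gate held far more of it, 1743 CPM in KO and 1487 CPM in WT. Cd44, the hyaluronan receptor, was at 135 CPM in KO and 43.7 CPM in WT cells (3.09 [2.24 to 4.30]), in 44 KO and 45 WT cells, and Kdm6b, an H3K27 demethylase, at 357 CPM in KO and 163 CPM in WT (2.19 [1.84 to 2.62]). Il4ra, the receptor subunit for interleukin-4 and interleukin-13, was at 91.2 CPM in KO and 43.0 CPM in WT cells, and Timd4, a receptor for phosphatidylserine on dying cells, at 120.4 CPM in KO and 51.7 CPM in WT.

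Histone and proliferation genes made up 8 of the 12 top-ranked genes and rested on a handful of cells. H2ac4 was at 93.6 CPM in KO and 14.6 CPM in WT cells, H3c3 at 103 CPM in KO and 19.7 CPM in WT, and Mki67 at 68.1 CPM in KO and 17.5 CPM in WT (3.90 [2.38 to 6.57]). Of the H2ac4 UMIs, 39 of 77 were in 1 KO cell. Without the 6 KO and 8 WT cells of the Mki67 and Top2a state, the log2 differences were 0.16 for H2ac4, 0.35 for H3c3, 0.10 for Hist1h2ap, 0.56 for Mki67, 0.37 for H2ac8, -0.03 for H2ac20, -0.50 for H1f5 and -0.04 for H4c4, none past 2-fold. Replication-dependent histone genes are near-identical copies, so counts may be split among them. H2aw, outside that cycling set, was lower in the KO cells at 8.51 CPM in KO and 50.2 CPM in WT, in 6 KO and 39 WT cells.

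Among monocyte markers, 8 of 18 were measured, 6 below and 2 above 0, with a median of -0.44. Plac8, a protein of inflammatory monocytes, was at 512 CPM in KO and 1348 CPM in WT cells (0.380 [0.341 to 0.422]), in 51 KO and 127 WT cells. It was also lower in KO monocytes (616 CPM in KO, 1447 CPM in WT) and in KO Xcr1 and Clec9a cells (689.6 CPM in KO, 1422 CPM in WT). Cd209a cells with 2 or more Ly6c2 UMIs held Plac8 at 1747 CPM in KO and 3215 CPM in WT. The remaining Cd209a cells held 371 CPM in KO and 963 CPM in WT. Plasmacytoid genes such as Klk1 and Siglech were also higher in the Ly6c2 cells. Ly6c2 was at 53.5 CPM in KO and 234 CPM in WT cells (0.229 [0.163 to 0.314]), in 12 KO and 42 WT cells. It too was lower in KO monocytes (811 CPM in KO, 1683 CPM in WT) and in KO Xcr1 and Clec9a cells (58.1 CPM in KO, 108 CPM in WT). After thinning a Ly6c2 UMI was found in 10.0% [4.68 to 18.1] of the KO and 22.5% [16.1 to 30.0] of the WT cells (13.3% and 27.8% before), and in 0.383% of the KO and 1.31% of the WT Pdgfra cells. Cd14, a receptor for bacterial lipopolysaccharide, stood on the other side at 458 CPM in KO and 291 CPM in WT cells (1.58 [1.37 to 1.82]). The monocyte list per cell ran from 4 over a median of 15 to 84 UMIs in KO and from 1 over a median of 19 to 136 UMIs in WT cells.

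The lowest gene of all was AC160336.1, a long intergenic non-coding RNA at chr14:44544055-44637201 on the minus strand (GRCm38). It had 2 UMIs in the KO and 413 UMIs in the WT cells, or 2.43 CPM in KO and 301 CPM in WT, a ratio of 0.00809 [0.000976 to 0.0294]. The same gap stood in monocytes (3.61 CPM in KO, 339 CPM in WT) and macrophages (4.63 CPM in KO, 412 CPM in WT), so it ran through the libraries and not through Cd209a cells alone. Its span overlaps exons of several predicted gene models, between which counts may be split. Muscle fibre and lipid-binding genes among the lowest rested on single cells. Acta1 had 165 of its 171 WT UMIs in 1 WT cell, and without the richest cell of each library its ratio was 0.557 [0.0549 to 3.11], as against 0.0293 with it. Mylpf had 99 of 107 WT UMIs in 1 WT cell (1.67 without the richest cells), and Fabp5 had 251 of 409 in 1 WT cell.

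Metabolic and stress lists held genes on both sides of 0, where 1528 of all 2548 genes lay above and 1020 below. Of 36 oxidative phosphorylation genes 34 were measured, 15 above and 19 below 0, none past 2-fold, with a median of -0.04. Of 17 glycolysis genes 13 were measured, 10 above and 3 below 0, with a median of 0.18 and Slc16a3, a lactate exporter, at 55.9 CPM in KO and 24.8 CPM in WT cells as the 1 gene past 2-fold. Heat shock genes, all 17 measured, had 11 below and 6 above 0 and a median of -0.16, with the counting interval below 1 for 8 and above 1 for 1. Hspb1, a small heat shock protein gene, was at 329 CPM in KO and 627 CPM in WT cells. Immediate early genes, which report handling as well as stimulation, were split 11 and 11 around 0, with the interval above 1 for 9 and below 1 for 8. Klf2, a Krüppel-like transcription factor, was the 1 gene past 2-fold, at 219 CPM in KO and 448 CPM in WT cells. Jun stood at 1932 CPM in KO and 2652 CPM in WT cells and Nr4a2 at 260.2 CPM in KO and 134 CPM in WT. Of 26 heterochromatin genes 5 reached the level measured, and Atrx, a chromatin remodeller, was at 162 CPM in KO and 95.4 CPM in WT cells while its partner Daxx was at 30.4 CPM in KO and 59.7 CPM in WT.

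**Figure D5:**
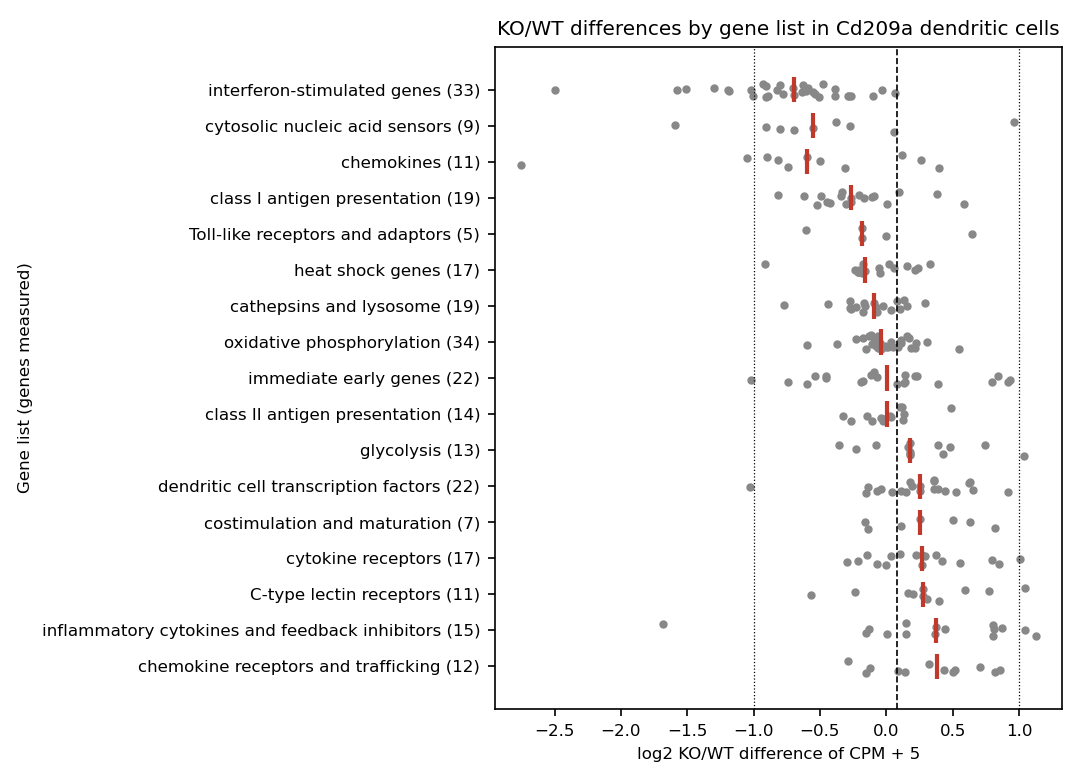
Log2 KO/WT differences of CPM + 5 in Cd209a dendritic cells for 17 gene lists, 1 point per measured gene, with a bar at each list's median. Interferon-stimulated genes have the lowest median (-0.69) and chemokine receptor and trafficking genes the highest (0.38), the dashed line marks the median of all genes (0.08) and the dotted lines mark 2-fold.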

How the data were processed

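The values are raw UMI counts per gene and barcode, deposited by the authors as 1 unfiltered matrix per library with 55487 genes. Per the labels, the libraries were made with the 10x single cell 3′ v2 kit. The submitters' processing notes name STAR 2.7.8a, STARsolo 2.7.9a, Seurat 4.0.1 and the build GRCm38. The annotation release, the strand setting and the treatment of shared reads were not given in the sources used here.

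Barcodes with at least 5000 UMIs and at most 10% mitochondrial UMIs were kept (6786 KO and 6722 WT). The members, the gene lists and the comparisons were chosen with earlier results of these data known. Counts were summed over the cells of a gate in each library, scaled to CPM and compared as log2(CPM + 5), with 50 CPM in either library and 20 UMIs in both as the minimum and 2-fold as the threshold. With 1 library per group no test was made. Intervals are Clopper-Pearson for shares, Poisson for levels and conditional binomial for ratios. UMIs are counted molecules, and the intervals and the level that 3 counts allow cover counting error only. Shares of cells with a UMI and summed lists per cell used 5000 UMIs drawn per cell. Free RNA was measured in barcodes with 20 to 100 UMIs. Scrublet's threshold marked 0 cells, so no doublets were removed; removing the 368 KO and 361 WT cells with the highest scores was tried as an alternative and took out 1 KO and 4 WT Cd209a cells.

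Genes were named by a rule: the 12 highest and the 12 lowest in KO against WT by the interval bound nearest to 1, the 10 highest and lowest against each other gate, genes of the selection rule, markers, and for each list up to 6 genes that were the most abundant or past 2-fold. Mitochondrial, ribosomal, haemoglobin, immunoglobulin, Y-linked and predicted genes were left out of the ranking. Genes named outside it (Canx, Ciita, Clec12a, H2-T23, Ifnar1, Irf1, Nr4a2, Nr4a3, Parp14, Psmb9, Runx3, Samd9l, Slfn5 and Tnfaip3, and the leading genes of the small states) were chosen after their values were seen.

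In simulated counts with known fold changes, 94.7% of the intervals held the true ratio. Of the genes made 3-fold higher 40 of 40 were called, of those made 2-fold higher 15 of 40, and of the unchanged genes 0 of 2290. These were Poisson draws without variation between cells, so the coverage followed from the set-up. They cannot show how often counts gathered in single cells give 2-fold calls. Gene positions come from GENCODE vM21 (GRCm38) by gene ID, and upstream sequences from RefSeq (GRCm38.p6) by symbol, with a window for 2024 of the 2548 genes measured. Python 3.11.15, scanpy 1.11.5, scipy 1.17.1 and, for trimmed-mean (TMM) scaling, edgeR 4.0.16 were used. The alternatives were other UMI minimums, the rule applied after thinning, other scalings, pseudocounts and filters, doublet removal and leaving out small states or the richest cells.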

Additional observations from a re-analysis of the deposited data

Results flagged for a closer look

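9 results stood out because the KO/WT ratio in the Cd209a dendritic cells and the ratio in monocytes or macrophages lay on opposite sides of 1, each with its counting interval clear of 1. None of these differences between cell types was tested.

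For 5 histone genes the ratio was above 1 in Cd209a cells and below 1 in macrophages. H3c3 was at 5.26 in Cd209a cells and 0.753 in macrophages, H2ac20 at 5.31 and 0.757, Hist1h2ap at 3.10 and 0.663, H1f5 at 2.92 and 0.525, and H2ac8 at 2.22 and 0.585. In monocytes the ratios of the same genes were above 1 as well, at 6.70, 2.90, 5.47, 6.49 and 7.54 in that order. The Cd209a values rest on the 6 KO and 8 WT cells of the Mki67 and Top2a state.

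The muscle fibre gene Acta1 had a ratio of 0.0293 in Cd209a cells and 1.40 in macrophages. Mylpf, a myosin light chain gene, had 0.140 in Cd209a cells, 1.39 in monocytes and 1.65 in macrophages. Both Cd209a values rest on 1 WT cell. Ly6c2 had a ratio of 0.229 in Cd209a cells and 1.21 in macrophages, whose gate admits at most 2 UMIs of this gene.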

How the results depend on the processing

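The share ratio of Cd209a cells ranged from 0.495 (minimum of 2000 UMIs) to 0.642 (without Ly6c2 cells) and its interval stayed below 1 in all 11 alternatives tried. The number of genes at least 2-fold higher in KO, 33 as reported, was 91 with a minimum of 8000 UMIs, 21 with the mean of CPM per cell, 17 under TMM scaling, 12 with a pseudocount of 20, 133 with no CPM filter and 53 without the Ccr7 cells. The number at least 2-fold lower, 31 as reported, was 64 with the minimum of 8000 UMIs, 17 with the pseudocount of 20 and 109 with no CPM filter, and was within 1.5 times of 31 under the other alternatives, with 44 under TMM scaling. The 8000 UMI minimum leaves fewer cells; the cause of the other shifts was not tested. The interferon list's median lay between -0.81 (TMM) and -0.46 (rule applied after thinning). The class II median, 0.0049 as reported, lay between -0.12 (TMM) and 0.034 (mean of CPM per cell) and changed sign under several alternatives. The Fc receptor median turned to -0.32 with the 8000 UMI minimum, -0.077 with a Cd209a minimum of 2 and -0.029 under TMM scaling. The log2 difference of Mylpf turned to 0.49 with the rule applied after thinning and 0.44 without the richest cells. Without the Mki67 and Top2a cells, H2ac20 turned to -0.027, H1f5 to -0.50 and H4c4 to -0.036, and 5 further histone or proliferation genes no longer passed 2-fold. Leaving out the Ccr7, Siglech, Mki67 and Top2a or Ly6c2 cells, or the richest cell of each gene, was chosen after seeing the data. No paired analysis was possible because each group is 1 library and the labels give no replicate numbers, and for the same reason no replicate could be left out. Setdb1, with 12 KO and 17 WT UMIs, could not be resolved at this depth.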
